A study of Mus musculus with 419 samples.

Results

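The p53-target-high cells are the 104 of 419 single mouse embryonic stem cells in which 5 well-known targets of the transcription factor p53, Cdkn1a, Mdm2, Ccng1, Phlda3 and Trp53inp1, gave the highest summed signal. They are set against the 104 p53-target-low cells, in which the same 5 genes were lowest, and the other 211 cells lay between. Each gene was summed over all its annotated transcripts and both alleles as parts per 1000000 of the cell's total (ppm), divided by its own mean over the 419 cells, and the 5 ratios were averaged into a score. High and low cells are of the same line, with the genotype of that line, and had the same treatment. The cells were not alike on chromosome 12 beyond 80 Mb, where the 129 share of the signal ran from 14.1% to 91.3% over the 419 cells. All came from the female hybrid line F1-21.6, with 1 set of chromosomes from strain 129Sv and 1 from Cast/EiJ, and were grown in serum and leukemia inhibitory factor on laminin-511, with no feeder layer. All were taken in G1 phase, and no drug, irradiation or other damaging agent is named in the labels. The series was made to study transcriptional bursting, and each cell was read by RamDA-seq, which covers whole transcripts of total RNA. No cultures are told apart in the labels, which leaves 1 sample of 1 line. No p-value was made from cells, and the error given for a ratio is its range over 5 sequencing lanes, which may be technical.

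p53 is a transcription factor that is held at a low level by the ubiquitin ligase Mdm2 and accumulates when DNA is damaged or replication, nucleolar function or other processes are disturbed. It binds DNA as a tetramer at a pair of 10-base elements and switches on genes that stop the cell cycle, repair DNA, change metabolism or start cell death, together with its own inhibitors. Cdkn1a encodes p21, an inhibitor of cyclin-dependent kinases. Mdm2 closes the feedback loop on p53, Ccng1 encodes cyclin G1, which also acts in that loop, Phlda3 restrains the kinase AKT, and Trp53inp1 encodes a stress protein that acts with p53 in cell death and autophagy. In mouse embryonic stem cells p53 is abundant, the G1 phase is short, and activated p53 is known to repress Nanog.

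The sequences before the starts of score genes are shown because the binding element of p53 can be read in them. A search for a pair of p53 decamers with no spacer, which reads the same on both strands, allowed up to 3 mismatches in 20 bases and required the fixed C and G of each decamer. The windows, from RefSeq (GRCm38.p6), ran from 250 bases before to 50 bases after each gene start. Such a pair was present in 453 of all 32851 windows (1.38%), and counted by gene in 441 of 27025 genes. Of the 4 score genes with a window, 2 held it, Cdkn1a and Ccng1, while Mdm2 and Phlda3 did not, and Trp53inp1 had no entry. The 250 bases before the start of each are given 5′ to 3′ on the gene's strand, with the decamer pair in capitals, for Cdkn1a at chr17:29090729-29090978 on the plus strand and for Ccng1 at chr11:40755287-40755536 on the minus strand.
Cdkn1a: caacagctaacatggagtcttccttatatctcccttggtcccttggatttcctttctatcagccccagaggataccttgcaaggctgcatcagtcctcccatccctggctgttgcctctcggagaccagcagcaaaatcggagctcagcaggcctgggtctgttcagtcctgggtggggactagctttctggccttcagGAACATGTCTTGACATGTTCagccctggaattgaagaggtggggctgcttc
Ccng1: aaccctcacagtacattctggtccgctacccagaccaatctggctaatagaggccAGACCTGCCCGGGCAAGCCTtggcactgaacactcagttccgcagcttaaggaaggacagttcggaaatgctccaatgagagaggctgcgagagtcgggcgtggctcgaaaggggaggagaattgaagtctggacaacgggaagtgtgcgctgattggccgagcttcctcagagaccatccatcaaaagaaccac
In both windows the capitals differ from the consensus at 1 of 20 bases. The pair began 51 bases before the start in Cdkn1a and 195 bases before it in Ccng1. This Cdkn1a start is that of a transcript with 13.7% of the gene. The transcript with 74.6% starts further downstream, at base 29093769, so the pair is not next to its start. Of the 39 other p53 targets with a window, 9 held a pair (23.1% of genes), in 10 of their 54 windows. Stretches around the pair, in capitals, are given for 4 of these that differ in how far they followed the score, Zfp365 at chr10:67912691-67912740 and Trp73 at chr4:154097205-154097254, both on the minus strand, Ckap2 at chr8:22185988-22186037 on the minus strand and Rps27l at chr9:66946281-66946330 on the plus strand.
Zfp365: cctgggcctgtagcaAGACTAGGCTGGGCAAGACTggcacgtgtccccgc
Trp73: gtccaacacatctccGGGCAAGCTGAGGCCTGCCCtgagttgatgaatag
Ckap2: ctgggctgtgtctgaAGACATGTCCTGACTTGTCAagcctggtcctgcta
Rps27l: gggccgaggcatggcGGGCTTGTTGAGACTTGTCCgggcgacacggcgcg
Rps27l, a ribosomal protein paralog, had the pair closest to the consensus of these 4, with 1 mismatch, and the smallest ratio between high and low cells, a log2 ratio of 0.36. Zfp365, Trp73 and Ckap2 each had 2 mismatches and log2 ratios of 3.34, 2.44 and 1.06. The order of these 4 comes from their choice and is not that of all 9. Among the targets not printed, Gtse1 had 1 mismatch and a log2 ratio of 0.75. Aen, Bbc3, Sesn1 and Tigar had 3 mismatches and log2 ratios of 0.60, 1.79, -0.02 and -0.21. A match is a description of letters and not a bound site. A window without one says only that these letters are not in it.

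The score ranged from 0.126 to 6.70 over the 419 cells, with a median of 0.696. Its median was 1.96 in the high cells and 0.356 in the low cells. The distribution had no gap at either limit: the last cell inside the high group was at 1.19 and the next cell outside at 1.17, while the last cell inside the low group was at 0.462 and the next at 0.465. Every lane held cells of both groups. The 5 lanes held between 11 and 26 high cells and between 17 and 26 low cells each, and lane 4 had the fewest high cells, 11 of its 82 cells, and the lowest median score, 0.594.

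The high cells were of more than one kind. The markers that define pluripotent cells, Pou5f1, Sox2, Nanog, Esrrb, Zfp42 and Dppa5a, summed to a median of 2213 ppm in high cells (lowest 7.12, highest 4811) and 2735 in low cells (lowest 136.7, highest 4423). Pou5f1 was above 0 in every cell of both groups, and all 6 markers were above 0 in 88 of 104 high cells (84.6%, 95% exact binomial interval 76.2% to 90.9%) and 101 of 104 low cells (97.1%, interval 91.8% to 99.4%). Below a limit of 1000 ppm, chosen after seeing the data, lay 26 high cells (25.0%) and 5 low cells (4.81%), with 6 more between. The cells on either side of that limit had 942 and 1047 ppm. These 26 high cells came from all 5 lanes, 3 to 6 from each, and their median score was 2.50, against 1.76 in the other 78 high cells.

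**Figure D1:**
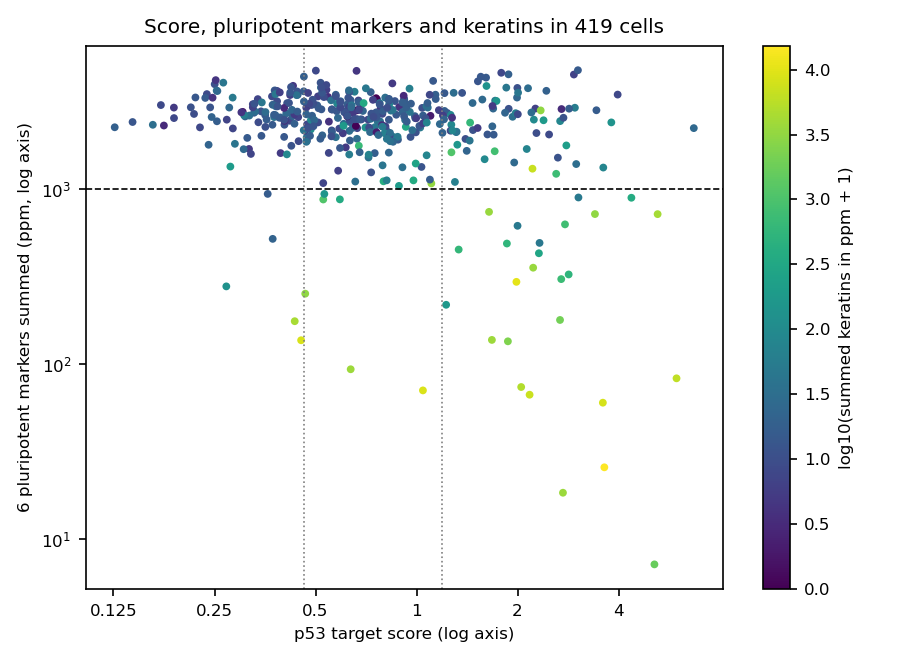
Each point is 1 of 419 cells; the x axis is the p53 target score and the y axis the sum of 6 pluripotent markers in ppm, both on log axes, and the colour is the log10 of summed keratins in ppm plus 1. Dotted lines mark the limits of the low and high groups and the dashed line 1000 ppm; 26 high cells and 5 low cells lie under it, many of them rich in keratins.

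Many of those 26 cells carried transcripts of keratins, smooth muscle actin or collagen, while other markers of the same cell types divided. Krt8, a keratin of simple epithelia, averaged 1828 ppm in them, 109 in the other 78 high cells and 8.51 in the 99 low cells above the limit. Acta2, smooth muscle actin, averaged 1120, 1.34 and 1.32 ppm in the same 3 groups, and Col1a1, the main collagen of fibroblasts, 265, 2.93 and 0.593. The 26 cells were not alike in this: their lowest, median and highest values were 4.25, 1485 and 7310 ppm for Krt8, 0, 174 and 9475 for Acta2, and 0, 33.4 and 2493 for Col1a1, and the medians of Acta2 and Col1a1 lay far under their means. Nanog averaged 13.6, 296 and 343 ppm in the 3 groups. Gata3 and Tfap2c, listed with Krt8 as trophectoderm genes, averaged 8.25 and 56.8 ppm in the 26 cells. In the other 78 high cells they averaged 13.3 and 80.7. Hand1 of that list averaged 33.3 in the 26 cells and 11.0 in the 78. Vim, listed with Col1a1, had a median of 48.7 in the 26 cells and 87.7 in the 78. The p53 targets were high in both kinds of high cell: Cdkn1a averaged 101 ppm in the 26 cells and 50.1 in the other 78, against 4.52 in the 99 low cells, and Trp53inp1 averaged 322 and 432, against 66.0. The counts over all genes and the values of the genes named first are therefore given for all high and low cells and again without the cells under the limit, and for other genes a call lost without them is stated. The part of these cells in each result of the whole groups was not tested beyond that.

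Other properties of the cells differed less. The total over both alleles averaged 916169 ± 66320 in high cells and 935450 ± 70472 in low cells (SD, n = 104 cells each), and 29696 transcripts were above 0 in high cells and 28815 in low cells. Ribosomal RNA rows held 14.3% ± 2.78 of the total in high cells and 16.0% ± 2.27 in low cells, lower in high cells in every lane. Mitochondrial transcripts held 4.33% ± 1.37 in high cells and 4.75% ± 0.866 in low cells, and 6 high cells but 0 low cells were under 1%. The part of these differences in the results was not tested, but leaving out the cells under 1% moved no count of genes by over 1.5 times. Cells with less than 35% of the 129 allele on chromosome 12 beyond 80 Mb made up 64 of 104 high cells (61.5%, interval 51.5% to 70.9%) and 72 of 104 low cells (69.2%, interval 59.4% to 77.9%), and these intervals overlap.

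The 5 score genes chose the cells, so their values in the 2 groups are given as a description. Cdkn1a had a lowest, median and highest value of 0, 50.7 and 276 ppm in high cells, and 0, 3.38 and 21.4 in low cells, and 79.8% of high cells lay above the highest low cell. For Mdm2 these values were 59.8, 224.7 and 1453 ppm in high cells, and 11.5, 50.2 and 126 in low cells. Ccng1 had 91.9, 349 and 1528 ppm in high cells, and 16.9, 75.0 and 199 in low cells. The ranges of all 5 genes overlapped between the groups, most of all that of Cdkn1a. Phlda3 had 30.2, 83.9 and 234 ppm in high cells, and 2.14, 15.7 and 51.6 in low cells. Trp53inp1 had 95.0, 361.3 and 1177 ppm in high cells, and 2.15, 63.2 and 141 in low cells.

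**Figure D2:**
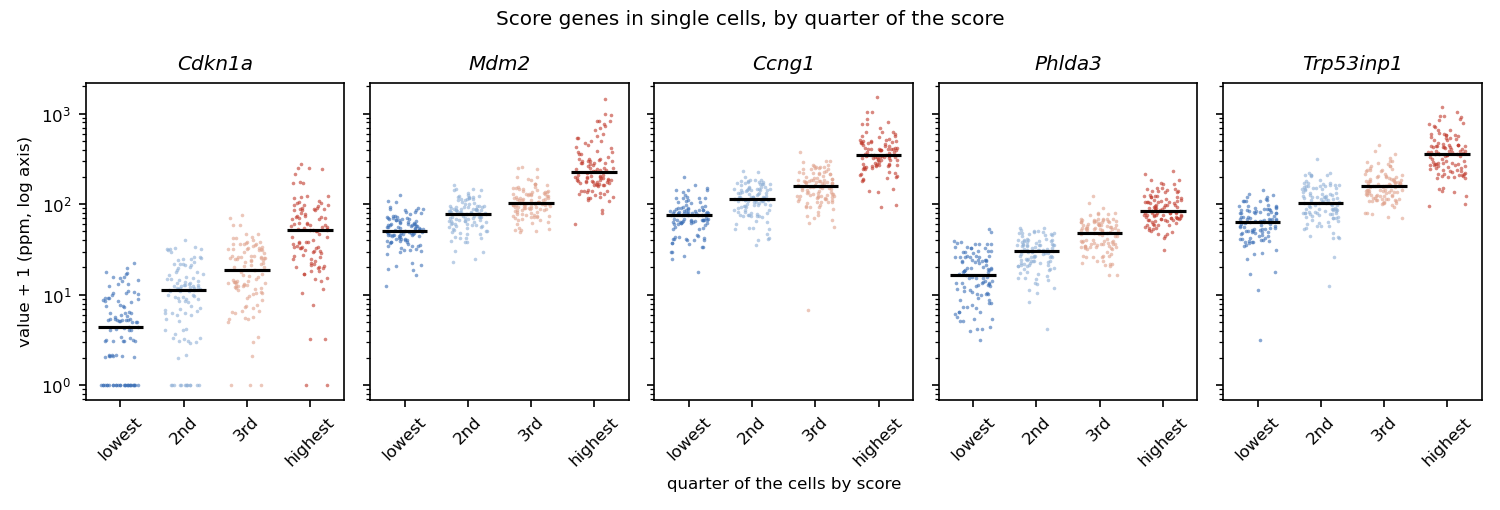
Points are cells and black lines medians of the value in ppm plus 1 (log axis) of the 5 score genes, in 4 groups of about 25% of the 419 cells, ordered by score. The medians climb over the groups in each gene, to 50.7 ppm for Cdkn1a and 361.3 for Trp53inp1 in the highest, and many low cells have Cdkn1a at 0.

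The 5 genes were mostly high together. All 5 lay above their own median of the series in 88 high cells, and 4 of 5 did in the other 16, while 78 low cells had none above it, 23 had 1 and 3 had 2. No single gene made the score: the largest term was Cdkn1a in 32 high cells, Trp53inp1 in 29, Mdm2 in 15, Ccng1 in 14 and Phlda3 in 14. Spearman correlations between pairs of the 5 genes ran from 0.495 to 0.739 over the 419 cells, and from 0.110 to 0.463 within the 104 high cells. These are descriptions; all values of a cell share its library and total.

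When a gene was left out of the score and the cells were chosen on the other 4, it still differed between the groups. Cdkn1a averaged 60.6 ppm in the high cells and 8.81 in the low cells chosen without it, a 6.87-fold ratio (log2 2.78, 2.33 to 3.62 over lanes). Mdm2 averaged 296 ppm in high cells and 58.5 in low cells (5.05-fold), and Ccng1 386.5 in high cells and 81.8 in low cells (4.73-fold). Phlda3 averaged 90.3 ppm in high cells and 20.5 in low cells (4.41-fold), and Trp53inp1 389 in high cells and 81.6 in low cells (4.77-fold). Each left-out gene was higher in 5 of 5 lanes, and between 98 and 100 of the 104 high cells were the same as with all 5 genes. The ranges overlapped in every gene, but between 95.2% and 100% of high cells lay above the median of the low cells.

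The 2 allele tables gave a further reading of the same genes. With cells chosen on the 129 table and values read in the CAST table, the ratios of high over low cells were 8.20 for Cdkn1a, 4.47 for Mdm2, 5.44 for Ccng1, 3.21 for Phlda3 and 4.45 for Trp53inp1. With cells chosen on CAST and values read in 129 they were 7.52, 5.02, 4.33, 3.66 and 5.67 for the same genes. Both alleles of each gene were thus higher in cells picked by the other allele, but the 2 tables share each cell's library. For Mdm2 the alleles lay within 10% of their sum of each other in 65.2% of cells, against 15.5% to 31.3% for the other 4 genes, so its 2 tables may hold reads that were split between alleles and are not independent.

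Among the transcripts of Cdkn1a, the share of each row differed between the groups. The row that starts at base 29093769 of chromosome 17 held 76.9% of the gene in high cells and 61.9% in low cells. The row that starts at base 29090979, next to the window printed above, held 10.5% in high cells and 28.6% in low cells, at 6.61 ppm in high cells and 1.33 in low cells. The rows share most of their sequence, so the division between them is uncertain. In Mdm2 a row annotated as subject to nonsense-mediated decay, whose first base lies at 117710022 on chromosome 10, held 49.4% of the gene in high cells and 49.8% in low cells.

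Outside the 5 score genes, 8778 genes averaged 10 ppm or more and were above 0 in at least 10% of cells. Of these, 1193 differed at least 1.5-fold with the same direction in each of the 5 lanes: 1010 were higher in the high cells (11.5%) and the others lower (2.08%). Genes past these limits are called higher or lower here. The median log2 ratio over all 8778 genes was 0.05. Without the cells under the pluripotent limit, which left 78 high and 99 low cells, 671 genes were called higher (7.64%) and 84 lower (0.957%). Of those, 614 and 72 were among the genes called with all cells. Among cells with less than 35% of the 129 allele on chromosome 12 beyond 80 Mb alone, 624 genes were called higher and 83 lower.

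Among called genes that averaged 20 ppm or more and met the rule for naming, the largest ratio belonged to Plk2, which encodes polo-like kinase 2, a known p53 target, and is on chromosome 13 (110395046 to 110400844, mm10). It had a lowest, median and highest value of 6.04, 66.3 and 432 ppm in high cells, and 0, 1.99 and 80.7 in low cells, and a log2 ratio of means of 4.14 (3.83 to 4.92 over lanes). Btg2, an antiproliferative p53 target on chromosome 1, had 3.42, 55.8 and 331 ppm in high cells, and 0, 5.42 and 64.8 in low cells (log2 3.44, 2.88 to 4.27). Without the cells under the pluripotent limit these log2 ratios were 4.19 for Plk2 and 3.39 for Btg2. Perp, a p53 target that encodes a membrane protein of desmosomes and cell death, had 0, 52.0 and 435 ppm in high cells and 0, 5.22 and 92.6 in low cells (log2 3.09, and 2.71 without those cells). The groups overlapped in all 3 genes, since low cells reached 92.6 ppm while the lowest high cells had 6.04 or less. Plk2, Btg2 and Perp averaged 4.03, 6.85 and 7.92 ppm in the low cells above the pluripotent limit. These means are under the mean over all cells that a gene needed to be measured. The 3 genes passed this filter on low values through cells with higher scores.

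Plk2 and Btg2 were also the genes that followed the score most closely. Their Spearman correlations with it over the 419 cells were 0.76 and 0.72, and Apaf1, which assembles the apoptosome, came next at 0.66, of the genes that averaged 20 ppm or more. Within the 104 high cells alone the correlations of Plk2 and Btg2 were 0.56 and 0.53. These are descriptions of likeness between values of the same cells.

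The other genes named by size of ratio lay further from the p53 pathway and rested on fewer cells. H19, an imprinted noncoding RNA, had 0, 40.1 and 14137 ppm in high cells and 0, 10.1 and 520 in low cells (log2 3.84, and 2.95 without the cells under the limit), and 41.2% of its sum lay in the 4 highest cells. Nrk, an X-linked kinase gene read from the CAST allele only, had a log2 ratio of 3.45 with all cells and 1.93 without those cells, and Rhox9, an X-linked homeobox gene also read from CAST only, 2.76 and 1.92. Ahnak2 had 3.28 and 3.66, Anxa1, a calcium-dependent phospholipid-binding protein, 3.04 and 2.40, Gsn, the actin-severing protein gelsolin, 2.71 and 2.20, and Krt8 2.69 and 3.68. All of these were called higher both ways. Nrk, Rhox9, Ahnak2, Anxa1 and Gsn averaged 5.06, 8.45, 3.88, 4.18 and 5.66 ppm in the 99 low cells above the limit. These means are under the 10 ppm of the filter on low values. Thbs1, a secreted matrix glycoprotein, and Tagln, an actin-binding protein of smooth muscle, had 2.97 and 2.95 with all cells, but 1.248 and 1.79 without those under the limit, where neither was called.

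**Figure D3:**
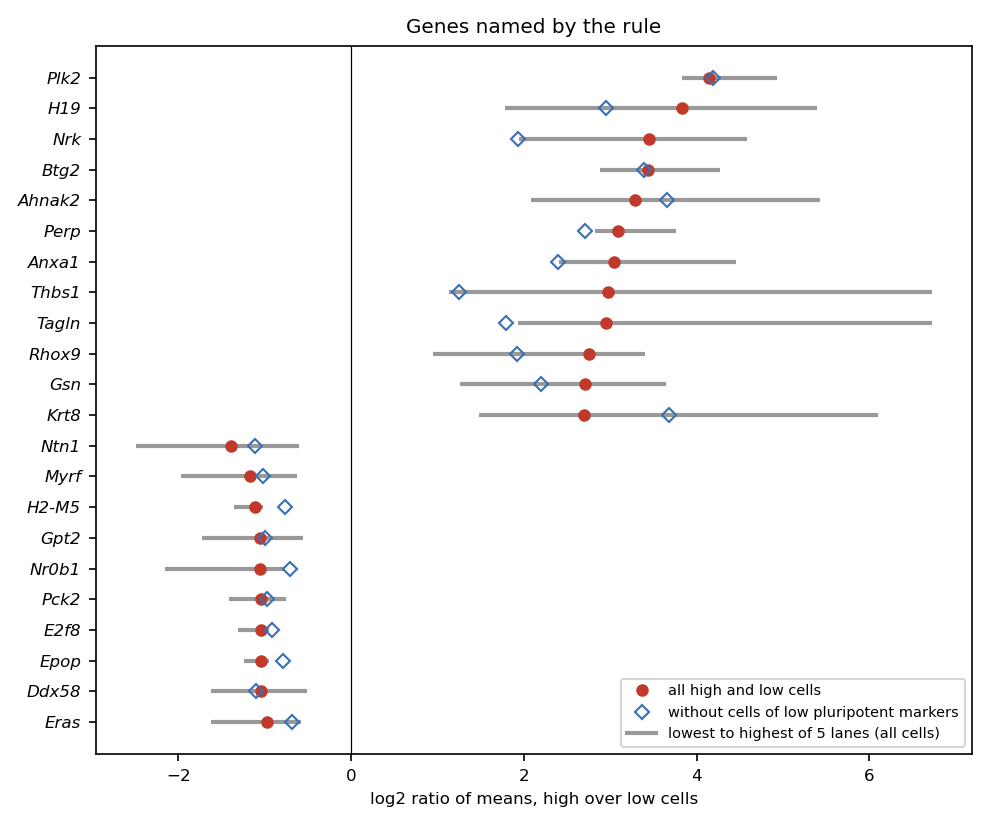
Red points are log2 ratios of mean values, high over low cells, of the 12 highest genes taken by the rule and 10 of the lowest, grey bars run from the lowest to the highest of 5 lanes, and blue diamonds leave out cells with under 1000 ppm of pluripotent markers. The log2 ratios of Plk2, 4.14 and 4.19, and Btg2, 3.44 and 3.39, lie close with and without those cells, while the log2 ratios without them are 1.248 for Thbs1, 1.79 for Tagln and 3.68 for Krt8.

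Of the 50 p53 targets listed besides the 5 of the score, 41 were measured, 30 of these were called higher and 0 lower. Against this stand 11.5% called higher among all measured genes, and a median log2 ratio of 0.05 over all genes, with 0.94 over the 41. The filter on low values favours genes that are high in 1 group. Of the 34 members that also averaged at least 10 ppm in the low cells, 23 were called higher (67.6%), with a median of 0.74, beside 805 of 8440 genes (9.54%), with a median of 0.04. The 9 members under the filter averaged 0.757 to 7.86 ppm over all cells, and 8 of them had a ratio above 1. Without the cells under the pluripotent limit 28 of the 41 were called higher and 0 lower, with a median of 1.00. The targets were listed from textbook knowledge with earlier results of these data known.

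Among targets that act on the cell cycle, besides Plk2 and Btg2, Zmat3, an RNA-binding protein of the p53 programme, had 74.3, 285 and 587 ppm in high cells (lowest, median, highest), and 12.2, 107 and 245.1 in low cells, a log2 ratio of 1.29 (1.04 to 1.38 over lanes). Its ranges overlapped, but its high median lay above the highest low cell. Psrc1 and Ckap2, which act on the mitotic spindle, and Gtse1, which is expressed in G2 and restrains p53, had log2 ratios of 1.12, 1.06 and 0.75. Tob1, an antiproliferative relative of Btg2, had 1.29. Plk3, another polo-like kinase, was at 0.15 and was not called.

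Several targets of the cell death branch were called higher. Pmaip1, which encodes the BH3-only protein Noxa, had 1.07, 52.6 and 271 ppm in high cells, and 0, 4.57 and 70.6 in low cells (log2 2.43, 1.95 to 3.22 over lanes). Apaf1 had 19.5, 106 and 459 ppm in high cells, and 0, 30.7 and 96.2 in low cells (log2 1.96, 1.57 to 2.23). The high medians of Zmat3 and Apaf1 lay above every low cell, and that of Pmaip1 did not. Tnfrsf10b, a TRAIL receptor, and Eda2r, an X-linked receptor of the tumour necrosis factor family read from CAST only, had log2 ratios of 1.65 and 1.51, and Pidd1, a scaffold of the PIDDosome, 0.94. Bax, the pore-forming effector, was higher in 5 of 5 lanes but by less than the limit, with 83.6 ± 21.8 ppm in high cells and 64.7 ± 19.5 in low cells (SD over 104 cells each, log2 0.37). Bbc3, which encodes Puma, was under the filter on low values, at 12.2 ppm in high cells and 3.54 in low cells.

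The targets that repair DNA or change metabolism divided. Ercc5, an endonuclease of nucleotide excision repair, averaged 59.6 ppm in high cells and 21.2 in low cells (log2 1.49), and Polk, a translesion polymerase, 25.8 in high cells and 8.70 in low cells (log2 1.57). Polk passed the filter on low values through cells with higher scores. Xpc, a damage sensor of the same repair pathway as Ercc5, did not follow, with 17.5 ppm in high cells and 18.5 in low cells (log2 -0.08). Sesn2, which restrains mTOR signalling, was called higher at 0.71, while its relative Sesn1 was at -0.02. Ak1, an adenylate kinase, and Pltp, a phospholipid transfer protein, had log2 ratios of 1.46 and 1.61. Tigar, a fructose bisphosphatase, and Gls2, the mitochondrial glutaminase, were at -0.21 and -0.05. In all, 4 members had a ratio below 1, Tigar, Xpc, Gls2 and Sesn1, and none of these passed the limit.

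Trp73, which encodes the p53 relative p73, averaged 24.0 ppm in high cells and 4.43 in low cells (log2 2.44), with a median of 0 in low cells. Zfp365, a zinc finger gene, averaged 44.3 ppm in high cells and 4.37 in low cells (log2 3.34), and Ptp4a3, a phosphatase, 47.3 in high cells and 8.40 in low cells (log2 2.49). All 3 were called higher with and without the cells under the pluripotent limit. Ppm1d, the phosphatase Wip1 that switches off p53 signalling, had 32.5 ppm in high cells and 20.1 in low cells (log2 0.69).

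p53 itself and the genes that act on it differed little. Of 24 measured members 1 was called higher, Mdm4, and 0 lower, with a median log2 ratio of -0.14. The shares over all measured genes were 11.5% higher and 2.08% lower. Mdm4, the Mdm2 partner that inhibits p53, averaged 310.3 ppm in high cells and 160 in low cells (log2 0.96, 0.60 to 1.08 over lanes). Trp53 was at -0.20. Hipk2, a kinase that phosphorylates p53, was the next highest at 0.40, and the lowest were Trim28, a corepressor that acts with Mdm2, at -0.58 and Rpl5, a ribosomal protein that binds Mdm2, at -0.54. These are RNA values and give no level of p53 protein.

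Damage repair and the cell cycle machinery gave almost no calls, beside 11.5% called higher and 2.08% lower among all measured genes. Of 30 measured genes of DNA repair and the damage response 0 were called either way, with a median of -0.23. Xrcc1, a scaffold of single-strand break repair, was highest at 0.58, Ercc1 followed at 0.30, and H2afx, the histone phosphorylated at breaks, was lowest at -0.47. Of the 30 measured genes of G1/S and replication 0 were called, 28 had a ratio below 1, and the median was -0.23. Ccne1, cyclin E1, was lowest at -0.57 and Pola1, a subunit of the primase polymerase, next at -0.46, while Gins2 and E2f1 were at 0.14 and 0.16. Genes repressed through the DREAM complex and in mitosis, 30 measured, also gave 0 calls, with a median of -0.06 and a range from -0.52 for Nusap1 and -0.48 for Mybl2 to 0.30 for Foxm1 and 0.31 for Cenpa. All cells had been taken in G1.

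The regulators of the G1 phase themselves gave calls both ways. Of 14 measured cyclins, kinases and inhibitors 2 were called higher and 1 lower, with a median of -0.23. Among all measured genes 11.5% were called higher and 2.08% lower. Rb1, the retinoblastoma protein that holds cells in G1, averaged 35.3 ppm in high cells and 10.8 in low cells (log2 1.70, 1.48 to 1.87 over lanes), and its relative Rbl2 20.5 in high cells and 8.77 in low cells (log2 1.23). Rbl2 passed the filter on low values through the high cells. Ccnd1, cyclin D1, was called lower, with 117 ppm in high cells and 181 in low cells (log2 -0.63). Leaving out the cells under the pluripotent limit gave 1.68, 1.33 and -0.62 for Rb1, Rbl2 and Ccnd1.

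Pluripotency genes were lower in the high cells, and much of this lay in the cells under the pluripotent limit. Of 20 measured genes of naive pluripotency 7 were called lower and 0 higher, beside 2.08% called lower among all genes, with a median of -0.53. Of 15 other core pluripotency genes 5 were called lower and 0 higher, with a median of -0.40. Without the cells under the limit 2 of the 20 were called lower and 1 higher, and 1 of the 15 lower, with medians of -0.28 and -0.26. Leaving those cells out selects on 6 of these same genes, so it also narrows the difference by construction.

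Gbx2, a homeobox gene downstream of LIF signalling that sustains the naive state, had a lowest, median and highest value of 0, 2.25 and 90.2 ppm in high cells, and 0, 20.8 and 182 in low cells. Its log2 ratio was -2.15 (-3.74 to -1.68 over lanes), and -1.88 without the cells under the limit. Nr0b1, an X-linked nuclear receptor read from CAST only, had 0, 18.9 and 527 ppm in high cells, and 0, 143 and 540.2 in low cells (log2 -1.05, and -0.70 without those cells). Both genes overlapped fully in range, and in both the medians differed more than the extremes. Zfp42, the zinc finger gene Rex1, had 2.10, 141 and 874 ppm in high cells, and 5.86, 305 and 846 in low cells (log2 -0.77, and -0.46 without those cells). Pou5f1, which encodes Oct4, had 2.03, 214 and 543 ppm in high cells, and 12.9, 328 and 639 in low cells (log2 -0.60, and -0.37 without the cells under the limit). Neither of these genes was called without them. At the other end of the naive list, Dppa3 was at 0.86 with 4 of 5 lanes in that direction and was not called, and Prdm14 was at -0.12. In the core list Rex2 was at -0.73, and at -0.49 without a call when those cells were left out, and Dppa5a and Tcf3 were highest, at -0.04 and -0.15.

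**Figure D4:**
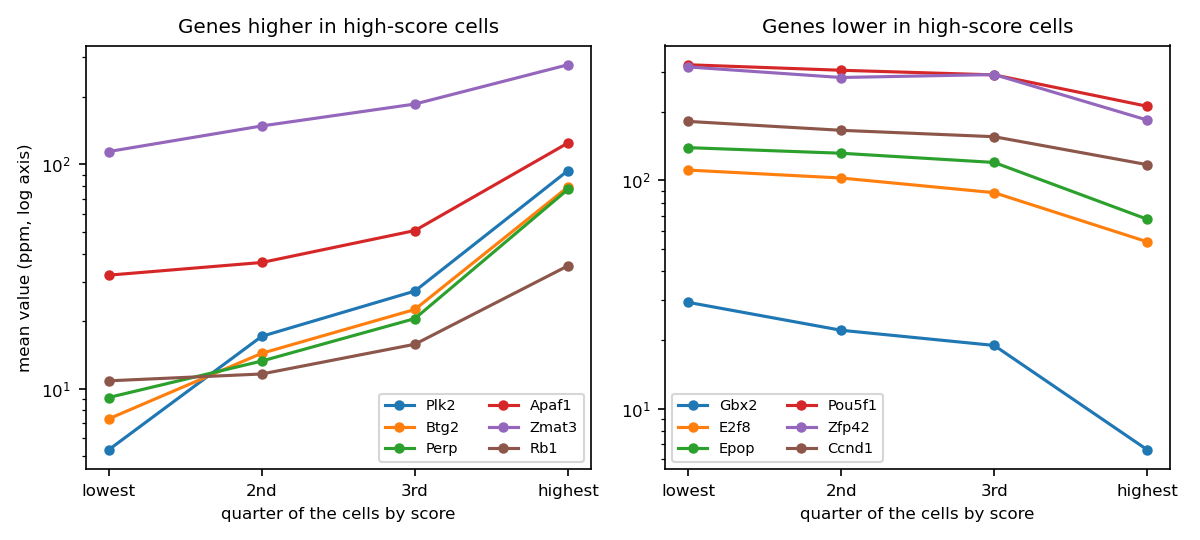
Mean value in ppm (log axis) in 4 groups of about 25% of the 419 cells, ordered from the lowest to the highest score, for 6 genes higher (left) and 6 lower (right) in the high cells. Plk2, Btg2 and Perp climb over all groups, while for Pou5f1 and Zfp42 most of the difference lies between the 3rd and the highest group.

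Genes of the formative and primed states, which follow the naive state, did not differ as a group. Of 11 measured members 2 were called higher and 1 lower, with a median of -0.34, beside 11.5% higher and 2.08% lower among all measured genes. Lefty1, a Nodal antagonist, had a median of 0 ppm in both groups, reached 1088 ppm in high cells and 24.3 in low cells, and was above 0 in 41 high cells and 29 low cells (log2 5.03), so its ratio rests on few cells: the 4 highest cells held 49.5% of its sum. Nodal, the ligand itself, was above 0 in most cells of both groups, with 0, 37.4 and 264 ppm in high cells, and 0, 15.5 and 67.4 in low cells (log2 1.36, 0.80 to 1.77 over lanes, and 1.28 without the cells under the pluripotent limit). Lefty2 was at 2.18 but not in every lane. Dnmt3l, a cofactor of DNA methylation, was called lower at -0.66, but not at -0.45 without those cells, and Lef1, a Wnt effector, was lowest at -0.68 without a call.

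The rule also took genes with the lowest ratios, of which 10 are given here, among them several of amino acid and carbon metabolism and of regulation of transcription. E2f8, an atypical E2F that represses the cell cycle, had 0, 50.8 and 148 ppm in high cells, and 9.68, 106 and 246 in low cells (log2 -1.04, -1.31 to -0.95 over lanes). Epop, a cofactor of Polycomb repressive complex 2, had 1.02, 58.9 and 247.1 ppm in high cells, and 4.06, 136 and 274 in low cells (log2 -1.04). In both genes the ranges overlapped and the low median lay more than 1.5-fold above the high median. Gpt2, the mitochondrial alanine transaminase, and Pck2, the mitochondrial phosphoenolpyruvate carboxykinase, were both at about this level, -1.05 and -1.04. Ntn1, the guidance factor netrin 1, was at -1.39, Myrf, a membrane-bound transcription factor, at -1.17, and H2-M5, a class Ib histocompatibility gene, at -1.12. Ddx58, the RNA sensor RIG-I, was at -1.04 and Eras, an X-linked Ras of embryonic stem cells, at -0.97. All 10, Nr0b1 included, were also called lower without the cells under the pluripotent limit, with log2 ratios from -1.12 to -0.68.

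Markers of other lineages were higher in the high cells, in part of them. Keratins led the trophectoderm list: of 7 measured trophectoderm genes 4 were called higher, Krt19 at 3.68, Krt7 at 3.45, Krt8 at 2.69 and Krt18 at 2.63, while Tead4 and Ets2 were at 0.22 and 0.28. Krt19 and Krt7 averaged 4.01 and 3.68 ppm in low cells and passed the filter on low values through the high cells. Of the 5 members with at least 10 ppm in the low cells as well, 2 were called higher, with a median of 0.65. Over all measured genes the share called higher was 11.5%, and 9.54% with that limit. Summed over the 4 keratins, 52 of 104 high cells (50.0%, interval 40.0% to 60.0%) and 11 of 104 low cells (10.6%, interval 5.40% to 18.1%) lay in the top 25% of the series. The median of that sum was 40.9 ppm in high cells and 12.8 in low cells, and it reached 15322 in high cells and 8682 in low cells, so the keratin-rich cells were a part of each group. Of the 6 trophectoderm markers set for naming cells 3 were measured, all keratins, and the name is not given to any cell. Of the 7 genes, 3 were called higher without the cells under the pluripotent limit, and the call of Krt7 was lost at 3.08.

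Genes of basement membranes and integrins, 17 measured, gave 11 called higher and 1 lower, with a median of 0.73, beside 11.5% called higher and 2.08% lower among all measured genes. Col4a2 and Col4a1, the chains of collagen IV, had log2 ratios of 2.09 and 1.75, but 0.80 and 0.44 without the cells under the limit, where Col4a1 was not called. Itgav and Itgb5, which form a vitronectin receptor, were at 1.33 and 1.04, and at 0.95 and 0.97 without them, and Lama1, a laminin chain, was called lower at -0.71, a call that was lost without them at -0.39. The contractile cytoskeleton, 15 measured, gave 10 called higher and 0 lower, with a median of 1.19. Of its 14 members with at least 10 ppm in the low cells as well, 9 were called higher, with a median of 1.09. Tpm1, tropomyosin 1, averaged 365 ppm in high cells and 99.3 in low cells (log2 1.88), and Myh9, the heavy chain of nonmuscle myosin, 1229 in high cells and 618 in low cells (log2 0.99). Acta2 was at 3.89 with a median of 0 in both groups and was not called, and the cytoplasmic actins Actb and Actg1 were at 0.21 and 0.10. Without the cells under the limit 5 and 4 members of these lists were called higher, with medians of 0.44 and 0.42.

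The lists of 3 further lineages rested on few measured members, and their counts stand beside 11.5% called higher and 2.08% lower among all measured genes. Of 18 genes of primitive endoderm 6 were measured, 5 called higher and 1 lower, with a median of 1.26, and 1 was called higher without the cells under the limit; Lrp2, the endocytic receptor megalin, was at 1.88 and Dab2, its adaptor, at 0.60, and both calls were lost without those cells, at 0.83 and 0.33. Lama1, Lamb1, Col4a1 and Col4a2 of this list were also counted among the basement membrane genes above, Lama1 as the 1 called lower. The 6 marker genes set for primitive endoderm summed to a median of 21.2 ppm in high cells and 18.0 in low cells, and 5 of them had a median of 0 in high cells. Among regulators under the filter, Sox7 averaged 3.26 ppm in high cells and 12.8 in low cells (log2 -1.98). Gata4 and Gata6 averaged 2.46 and 1.15 in high cells, and 1.38 and 0.276 in low cells. Of 14 fibroblast genes 6 were measured and 3 called higher, Col1a1 at 5.16, Thbs1 and Tagln, and 0 of these without the cells under the limit; Vim, vimentin, and Fn1, fibronectin, were at 0.20 and 0.41, and at -0.73, where Vim was called lower, and -0.02 without those cells. Thbs1, Tagln and Acta2 of this list were also counted in the contractile list, and Fn1 in the basement membrane list. Vim had a median of 76.4 ppm in high cells and 135 in low cells. Col1a1 averaged 1.91 ppm in low cells and passed the filter on low values through cells with higher scores. The fibroblast marker sum had a median of 116 ppm in high cells and 158 in low cells. It reached 19510 in high cells and 2041 in low cells. Nes, nestin, and Tubb3, neuronal tubulin, the 2 of 3 measured neural genes called higher, were at 1.39 and 0.78 and at -0.03 and -0.15 without those cells, with Map2 at 0.34. No mesendoderm gene and no gene of the 2-cell-embryo program passed the filter on low values, and 3 or more markers of the 2-cell-embryo state were above 0 in 1 high cell and 1 low cell.

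Stress and growth pathways gave single genes more than whole lists. Their counts stand beside 11.5% called higher and 2.08% lower among all measured genes. Among 17 measured ERK targets and feedback genes, Fos, Jun and Dusp1 were called higher at 1.97, 1.77 and 1.00, and the call of Dusp1 was lost without the cells under the pluripotent limit, at 0.56. Of the 15 members with at least 10 ppm in the low cells as well, which leaves out Fos and Jun, 1 was called higher. Spry4, a feedback inhibitor, and Myc were called lower at -0.92 and -0.87, and the median was 0.09. Fos averaged 24.0 ppm in high cells and 6.13 in low cells, and Myc 31.7 in high cells and 58.2 in low cells. Of 17 measured members of the Myc family and its targets 1 was called lower, Myc, and 15 had a ratio below 1, with a median of -0.37; Srm, spermidine synthase, was next at -0.58, and Cad, of pyrimidine synthesis, and Max were highest at 0.40 and 0.01. Of 14 measured genes of the integrated stress response Ddit4, an inhibitor of mTOR that p53 also induces, was called higher at 2.30 and Sesn2 at 0.71, and Shmt2, of mitochondrial one-carbon metabolism, was called lower at -0.74, with Mthfd2 of the same pathway at -0.57. The median of that list was -0.37.

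Over all 8778 measured genes 4914 (56.0%) had a ratio above 1 and 11.5% were called higher, against which the lysosomal and AKT pathway genes are set. Of 17 measured genes of autophagy and lysosomes 15 had a ratio above 1, 4 were called higher and 0 lower, with a median of 0.33. Ctsd, the protease cathepsin D, averaged 246 ppm in high cells and 84.2 in low cells (log2 1.55, 1.12 to 1.88 over lanes), and was the only 1 of the 4 still called without the cells under the limit; Sqstm1, the autophagy receptor p62, was at 0.94 and at 0.55 without them, Gabarapl2 at -0.03 and Tfeb, a regulator of lysosomal genes, lowest at -0.56. Of 20 measured genes of mTOR and AKT signalling 4 were called higher, Ddit4, Akt1 at 0.83, Gsk3b at 0.74 and Foxo3 at 0.72, of which Gsk3b lost its call without the cells under the limit, at 0.57, and 19 had a ratio above 1, with a median of 0.20; Eif4ebp1 was lowest at -0.24 and Akt2 next at 0.03.

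Metabolic and chaperone lists lay near the median of all genes, of which 11.5% were called higher and 2.08% lower. In glycolysis, 17 measured, Hk1, hexokinase 1, and Slc2a1, the glucose transporter Glut1, were called higher at 1.03 and 0.72 and Pfkp, a phosphofructokinase, lower at -0.65, with Pdk1 at -0.49 and a median of -0.17. Without the cells under the pluripotent limit Hk1 was still called, and the calls of Slc2a1 and Pfkp were lost, at 0.29 and -0.48. In cholesterol synthesis, 18 measured, Dhcr7 and Nsdhl were lowest at -0.25 and -0.16, and the median was 0.11. Of 17 genes against oxidative stress, with a median of 0.19, Srxn1 was called higher at 0.81, and Nqo1, Sod2 and Hmox1 were at 0.55, -0.22 and -0.48 without a call. The call of Srxn1 was lost without those cells, at 0.34. Of 14 heat shock chaperones, with a median of -0.11, Bag3 was called higher at 0.75, while Hspa1b, Hsph1 and Hspa9 were at 0.47, -0.37 and -0.40. The call of Bag3 was lost without those cells as well, at 0.35. Bag3 averaged 9.37 ppm in low cells, under the limit of the filter on low values. Among the apoptosis genes, 15 measured, Pmaip1 and Apaf1 were the 2 called higher, Mcl1 and Birc5, which protect from cell death, were lowest at -0.01 and -0.09, and the median was 0.30.

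Noncoding RNAs and housekeeping lists complete the comparison, beside the 11.5% called higher and 2.08% lower among all measured genes. Of 16 measured nuclear noncoding RNAs and hosts of small nucleolar RNAs, H19 and Malat1 were called higher, and Snhg12, at -0.82, and Meg3, an imprinted RNA of chromosome 12, at -0.63, were called lower, the call of Meg3 being lost without the cells under the pluripotent limit, at -0.56. Malat1, an abundant nuclear RNA, averaged 2570 ppm in high cells and 1502 in low cells (log2 0.77, 0.64 to 1.14 over lanes). Of 5 measured replication-dependent histone genes 3 were called lower, Hist1h1b at -0.88, Hist1h1a at -0.80 and Hist1h1d at -0.78, with Hist1h4d at -0.58 and Hist1h1c at -0.09. The call of Hist1h1d was lost without those cells, at -0.72. The 14 measured mitochondrially encoded genes, with a median of -0.12, and 31 proteasome genes, with a median of -0.07, gave 0 calls; mt-Nd1 and mt-Atp8 were lowest at -0.24 and -0.23 and mt-Nd6 and mt-Co3 highest at 0.05 and 0.03, and proteasome genes ran from -0.29 for Psmc5 and -0.28 for Psmd3 to 0.03 for Psma3 and 0.12 for Psmc3. No gene in these 2 lists passed the 1.5-fold limit, in a comparison in which 30 of 41 other p53 targets did.

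**Figure D5:**
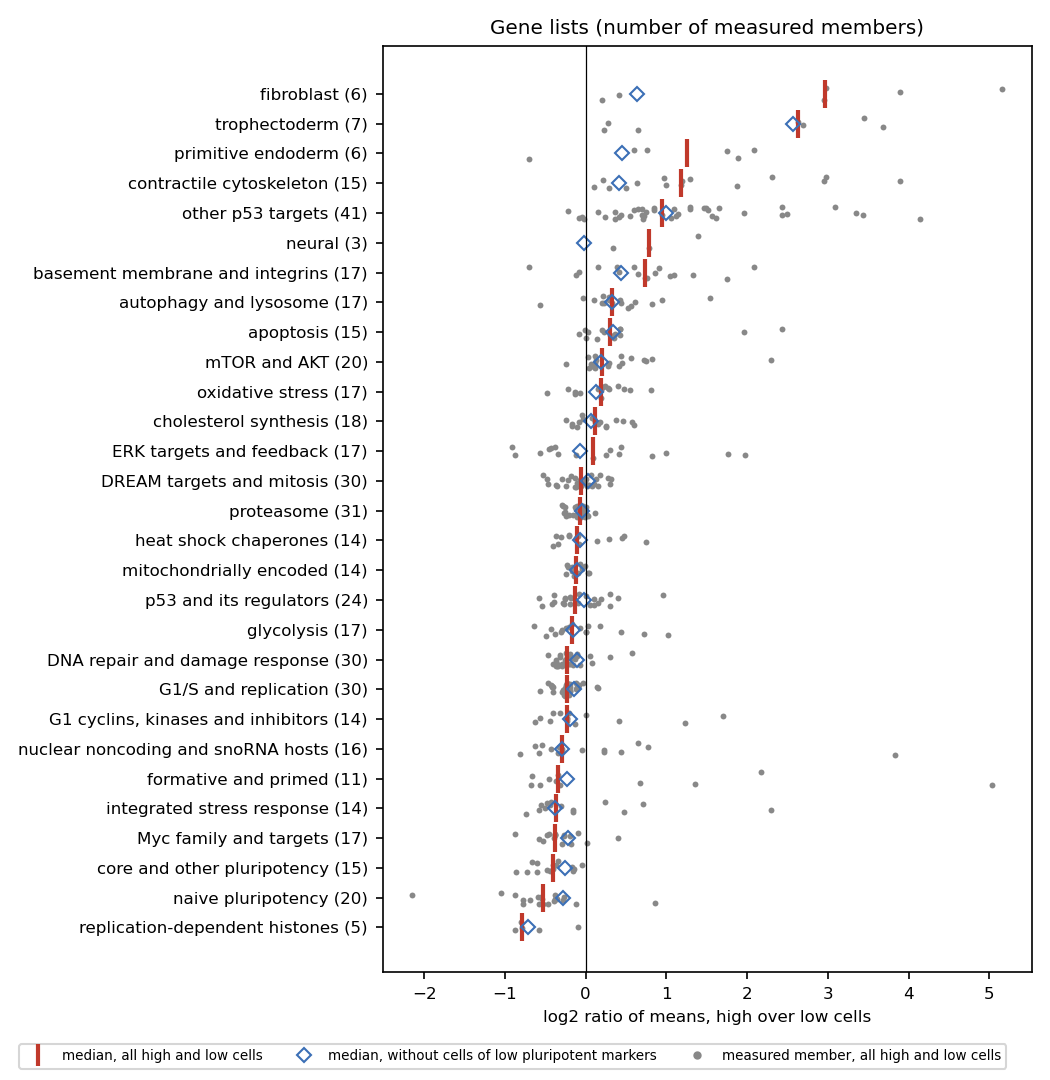
Grey points are the log2 ratios, high over low cells, of measured members of each gene list, red bars their medians with all cells and blue diamonds the medians without cells with under 1000 ppm of pluripotent markers. The median of the other p53 targets is 0.94 with all cells and 1.00 without those cells, while those of the fibroblast genes are 2.96 and 0.63 and those of the contractile genes 1.19 and 0.42.

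Within the high cells the score still ordered some genes. Over these 104 cells the Spearman correlation with the score was 0.43 for Perp, 0.27 for the keratin sum and 0.33 for the sum of Lefty1 and Lefty2, and -0.38 for Pou5f1 and -0.37 for Gbx2. Over all 419 cells the values were 0.54, 0.34, 0.17, -0.36 and -0.40 in the same order. They are descriptions over cells that share a line, a growth condition and, within a lane, a sequencing run. Promoters with a p53 decamer pair belonged to 135 measured genes besides the score genes, of which 29 were called higher (21.5%). Their median log2 ratio was 0.16, beside 11.5% called higher and 0.05 over all measured genes. The 29 include the listed p53 targets Trp73, Zfp365, Ckap2, Gtse1 and Aen, so this share partly repeats the result of that list. Of these, Trp73 and Zfp365 passed the filter on low values through cells with higher scores.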

How the data were processed

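RNA of 419 single cells was read by RamDA-seq, and the authors deposited 2 tables, 1 per allele, with 117762 transcripts as rows. Per the submitters' processing notes, Bowtie 1.1.2 and the build mm10 were used; their roles and the tool behind the allele values are not given in the sources used here. From the values themselves, the deposited unit was taken as a score, whole numbers of nearly common totals per cell that were apparently scaled and rounded by the authors, so depth in reads is unknown and no interval for counts of reads is given. All columns matched a sample, and 116919 rows matched GENCODE vM21.

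Rows were summed per gene and expressed in parts per 1000000 (ppm) of the cell's total over both tables. Genes needed a mean of 10 ppm and a value above 0 in 10% of cells. A gene was called when its ratio of means was at least 1.5-fold and its direction the same in 5 of 5 lanes. The 12 highest and 12 lowest called genes that averaged 20 ppm or more were named, if the ratio with cells limited at the 95th percentile was at least 1.25-fold, and predicted symbols were left out. For each list the 2 highest and 2 lowest members were named, with the score genes and the 3 genes most correlated with the score. Some genes that these rules pick are left out here. Other genes were added for their role after their values were seen. The members and lists were chosen with earlier results of these data known, and the limits on pluripotent markers, mitochondrial RNA and chromosome 12 after seeing data. Shares of cells have exact binomial (Clopper-Pearson) 95% intervals, which cover counting error only. No doublet caller was run. The ratio was tested on simulated data. Python 3.11.15, numpy 2.4.6, pandas 2.3.3, scipy 1.17.1 and matplotlib 3.10.9 were used.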

Additional observations from a re-analysis of the deposited data

How the results depend on the processing

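The 3 results over many genes and the 5 left-out score genes did not change direction under the alternatives run. Of 122 called genes of the lists and the naming rule, 43 lost their call without cells of low pluripotent markers, and Nes and Tubb3 changed sign, to -0.025 and -0.15. Other settings were not run for single genes. The 1010 genes called higher became 3442 with no filter on low values, 220 with a mean of at least 50 ppm, 1539 between the highest and lowest 10% of cells, 427 between the upper and lower 50%, 624 in cells under 35% of the 129 allele on chromosome 12 beyond 80 Mb, and 671 without cells of low pluripotent markers. Under the same 6 settings the genes called lower (2.08%) became 645, 77, 629, 19, 83 and 84, and 485 by the difference of mean log2(value + 1). The median log2 ratio of the other p53 targets, 0.94, was 1.05 with the largest row of each gene, 1.07 with no filter, 0.72 with a mean of at least 50 ppm, 1.23 between the outer 10%, 0.59 between the upper and lower 50%, and 0.84 with cells chosen within 3 groups by the number of transcripts above 0. For a score gene left out of the score, the log2 ratio between the outer 10% and between the upper and lower 50% was 3.94 and 1.82 for Cdkn1a, 3.18 and 1.52 for Mdm2, 2.85 and 1.44 for Ccng1, 2.69 and 1.40 for Phlda3, and 3.05 and 1.55 for Trp53inp1. With cells limited at the 95th percentile it was 2.01 for Mdm2, 2.07 for Ccng1 and 2.09 for Trp53inp1. The outer 10% compare cells further apart in score, and the filters change how many genes are counted; otherwise the cause was not tested. The other settings, 20, 19 and 20 of 26 for the 3 results over many genes, moved the counts by less than 1.5 times and the median by less than its spread over lanes. They include leaving out each lane or each score gene and choosing cells on 1 allele. No paired analysis was possible because the cells form 1 group. The cells are 1 sample, reads per cell are unknown, and p53 protein and damage were not measured. The settings on pluripotent markers, mitochondrial RNA and transcripts above 0 were chosen after seeing the data.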

Other observations

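Several genes outside the list of p53 targets followed the score less closely than Plk2, Btg2 and Apaf1. They followed it more closely than Perp, a listed target with a correlation of 0.54. They were chosen after their values were seen, as the next genes by Spearman correlation with the score over 419 cells. The list is a choice of 50 genes, and whether p53 acts on these others was not tested. Fbxw9, an F-box gene, averaged 50.1 ppm in high cells and 16.3 in low cells (log2 1.63, 1.42 to 1.92 over lanes) and correlated at 0.64. Abhd4, a lipase gene, averaged 78.1 ppm in high cells and 20.6 in low cells (log2 1.92, correlation 0.62). Susd6, Cdc42bpg, a kinase downstream of Cdc42, and Rap2b, a small GTPase, each correlated at 0.61, with log2 ratios of 1.63, 1.67 and 1.79. Wdr35, a component of intraflagellar transport, averaged 101.7 ppm in high cells and 26.2 in low cells (log2 1.96, 1.86 to 2.33 over lanes), and Ptpn14, a phosphatase, 298 in high cells and 59.9 in low cells (log2 2.32). All of these were called higher with and without the cells of low pluripotent markers. Their ranges overlapped between high and low cells.

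In the opposite direction, E2f8 had the most negative correlation with the score, -0.48. Tcof1 and Nolc1, nucleolar proteins that act in ribosome synthesis, correlated at -0.47 and -0.44. Tcof1 averaged 186 ppm in high cells and 290.0 in low cells (log2 -0.64, and -0.51 without the cells of low pluripotent markers, where it was not called). Nolc1 averaged 178 ppm in high cells and 247.7 in low cells (log2 -0.48) and was not called.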
